A study of Drosophila melanogaster with 38 samples.

Results

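Flies newly moved to restricted food were set against flies that had eaten restricted food all their adult life, at 6 times in the first 18 hours after the move. The arrays were chosen by their titles, switched against restricted at the same hour, which gave 12 of the 38 arrays of the series, 6 from each cohort. The switched cohort (SF) held Canton-S females, 40 days old, that had been passed on control food and were then given restricted food. The restricted cohort (RF) held Canton-S females of the same age that had been passed on restricted food throughout. The control cohort (CF) stayed on control food, and its 6 arrays at the same hours are given beside the others to show the level the switched flies came from. Restricted food holds the same ingredients as control food with less sucrose and less yeast, so that SF and RF flies ate the same food at every hour compared here. Each array held RNA from the heads and thoraces of many pooled females, kept in vials with males, and there was 1 array per cohort at 2, 4, 6, 8, 12 and 18 hours. RF flies were kept in other vials than the flies that became SF, so that a difference between vials and a difference in diet history cannot be told apart, and p values measure the spread between hours.

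Dietary restriction lowers the mortality of flies, and flies moved to poorer food late in life take on lower mortality within days. A fly meets a poorer diet with enzymes of the gut that split sugars, fats and proteins, with transporters that bring in amino acids and metals, and with the fat body, an organ that does the work of liver and fat tissue and also makes immune peptides and storage proteins. Setting SF against RF asks which genes still differ between flies that eat the same food and differ in what they ate before. In RNA from pooled heads and thoraces, fewer cells of a type and less RNA per cell cannot be told apart.

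Most differences between the cohorts were small, and none passed limma's test on the 6 pairs. Of 9420 probe sets with a mean log2 score of at least 6, limma called 0 (0%) between SF and RF on the 6 pairs after Benjamini-Hochberg adjustment at 0.05, and the smallest adjusted p was 0.164. At an unadjusted p under 0.05 there were 337 (3.58%), with 97 higher in SF (1.03%) and 240 lower in SF (2.55%). Whatever their p, 5267 of the 9420 (55.9%) were higher in SF. The share of 3.58% lies below the 5% that this threshold would give on average if no probe set differed. The median difference was 0.02 on the log2 scale, the median size of a difference was 0.10, and 11 probe sets in each direction differed by more than 2-fold. In 93 probe sets (0.987%) SF was higher in 6 of 6 pairs, and in 150 (1.59%) it was lower in 6 of 6. Independent random signs would give 6 of 6 in a share of 0.0312 of probe sets, both directions together. The 6 SF and 6 RF values did not overlap in 55 probe sets, 17 with SF above RF and 38 with SF below (0.584% of those tested). With the spread taken from 12 pairs, the 6 later ones included, limma called 24 probe sets (0.255%), 10 higher and 14 lower in SF. The number of these calls depended on which pairs entered the fit. Leaving out the 4 or the 6 hour pair left 0 of them, and leaving out the 2, 12 or 18 hour pair gave 2, 13 and 6. Without the 8 hour pair there were 26, and the mean of the eggshell genes as a covariate gave 86. A single fit of the 18 arrays of SF, RF and CF called 3 (0.0318%), Zip42C.1 higher and CG14820 and CG8785 lower in SF. The median standard error of a difference was 0.13 at 2 to 18 hours and 0.08 at 24 to 72 hours. The spread of 12 pairs thus draws in part on later hours that varied less. It can understate the spread of the first hours.

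Ovary transcripts, which do not belong to the labelled head and thorax, varied widely between the arrays of this comparison. How much abdominal tissue each array held, gut included, was not measured. The part of gut tissue in the scores of the gut genes given below was not tested. The mean of 14 eggshell genes had its lowest, median and highest values at 9.99, 11.58 and 12.55 in SF, against 9.64, 11.38 and 12.11 in RF. By hour, its SF minus RF difference was -0.51, -1.86, 0.98, 2.91, -2.06 and 1.84, so that it was negative in 3 pairs and positive in 3. Of the 9420 probe sets, 67.2% had a difference that correlated with that of the eggshell mean with an absolute r above 0.7 over the 6 pairs, which is a description of 6 points. The differences of the 8 hour pair had the widest spread, with an SD of 0.87 against 0.31 to 0.48 in the other pairs, and the SF array at 8 hours had the highest eggshell mean. Flight muscle markers of the labelled tissue ran from 9.58 to 10.98 in SF and from 9.94 to 10.85 in RF. Photoreceptor markers ran from 8.85 to 10.5 in SF and from 9.13 to 10.4 in RF, and of 12 male reproductive tract genes on the array 11 had a mean score below 6.

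The 12 probe sets named as higher in SF had the lowest unadjusted p among those higher in 6 of 6 pairs. They include enzymes that split sugars and fats, a metal transporter and a cuticle protein, and none of them passed the adjusted test on the 6 pairs. Zip42C.1, a zinc transporter gene of the ZIP family, had its lowest, median and highest log2 scores at 6.59, 6.99 and 7.30 in SF, against 5.28, 5.49 and 6.17 in RF. The 2 cohorts did not overlap, and CF lay at 6.86 to 7.23, within the range of SF. Its difference of 1.34 (SE 0.20, limma adjusted p = 0.216) passed with the spread of 12 pairs (adjusted p = 0.0106) and in the single fit of 18 arrays (adjusted p = 0.0254). Cpr49Ac, the gene of a cuticular protein, scored 6.88, 7.20 and 7.94 in SF, against 5.74, 6.03 and 6.30 in RF. Again the cohorts did not overlap, and SF minus RF was 1.30 (SE 0.17), which passed with the spread of 12 pairs (limma adjusted p = 0.0466). CG33337 had the lowest p of the 12, with 7.65, 7.74 and 8.16 in SF and 6.26, 6.92 and 7.26 in RF. Its difference of 0.995 (SE 0.10, limma adjusted p = 0.164) did not pass with the spread of 12 pairs either (adjusted p = 0.141). The gene next to it on the chromosome, CG16723, differed by 1.14 (SE 0.24) and passed there (adjusted p = 0.0466).

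**Figure D1:**
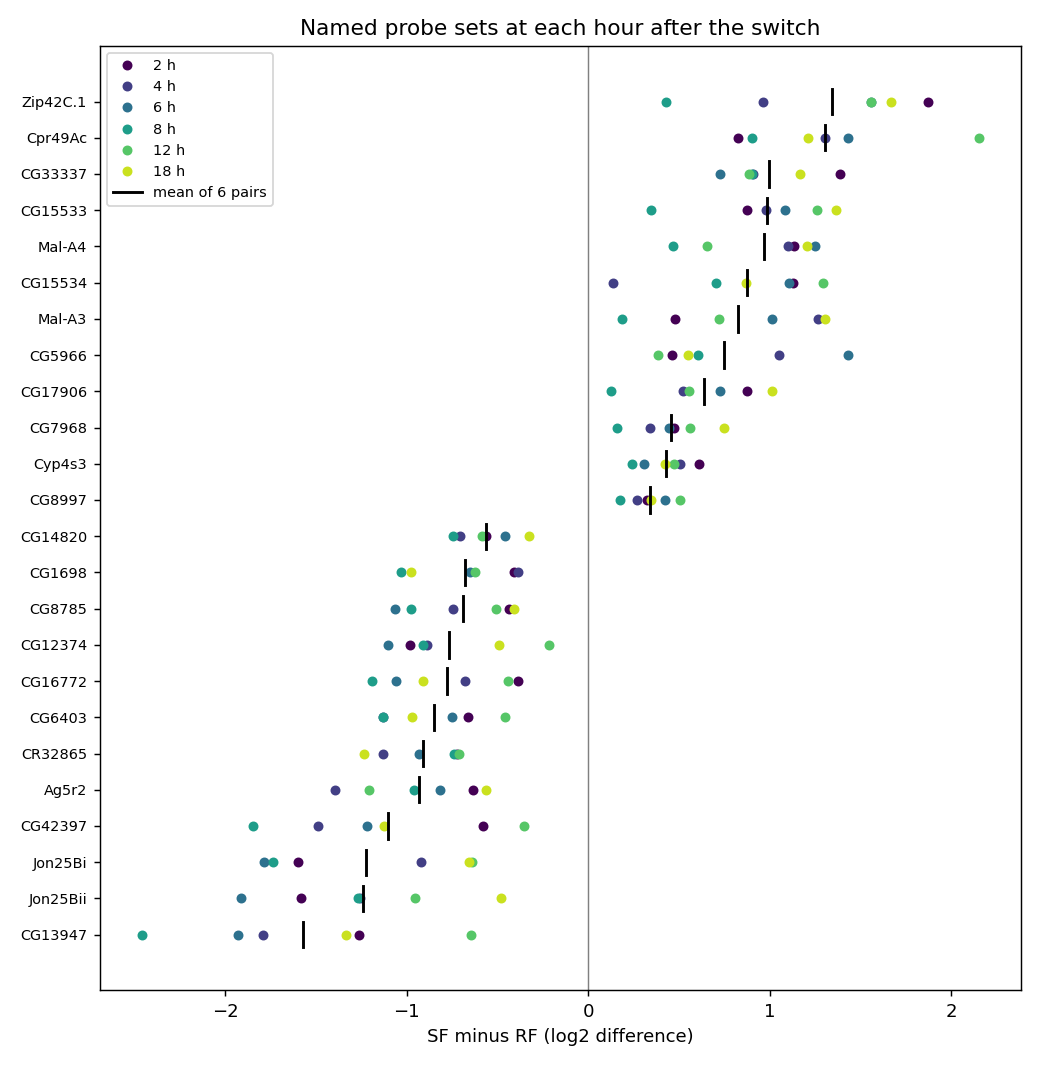
SF minus RF on the log2 scale (x axis) for the 24 named probe sets (y axis), with a point for each of the 6 hours and a black bar for the mean of the 6 pairs. All points of a probe set lie on the same side of 0, as the rule that named them required, and the means run from -1.57 for CG13947 to 1.34 for Zip42C.1.

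Genes of maltases, enzymes that split disaccharides in the gut, lay among the higher ones. Mal-A4 scored 9.91, 10.69 and 11.07 at its lowest, median and highest in SF, against 9.25, 9.58 and 10.08 in RF. The cohorts overlapped by 1 SF value, at 12 hours, and SF minus RF was 0.97 (SE 0.13), which passed with the spread of 12 pairs (limma adjusted p = 0.0176). Its chromosomal neighbour Mal-A3 scored 8.35, 9.06 and 9.57 in SF, against 7.63, 8.23 and 8.65 in RF, with a difference of 0.83 (SE 0.17) that did not pass there (limma adjusted p = 0.0535). RF minus CF at the same hours was -1.05 for Mal-A4 and -0.69 for Mal-A3, while SF minus CF was -0.08 and 0.14 in that order. Of the 11 maltase and amylase genes tested, 9 were higher in SF and 3 of them had an unadjusted p under 0.05, against 1.03% of all probe sets. The median of the list was 0.16, against 0.02 over all probe sets. The target of brain insulin gene tobi, which also encodes a glucosidase, scored 12.06, 12.63 and 12.84 in SF and 11.17, 12.07 and 12.44 in RF, higher in 5 of 6 pairs with a difference of 0.56 (SE 0.15, limma adjusted p = 0.79).

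Genes of enzymes that split lipids lay among the higher ones. CG15533 and its neighbour CG15534 encode proteins of the acid sphingomyelinase family, which split a membrane lipid. CG15533 scored 9.96, 10.26 and 10.88 in SF, against 8.88, 9.35 and 9.61 in RF. The cohorts did not overlap, and SF minus RF was 0.99 (SE 0.14), which passed with the spread of 12 pairs (limma adjusted p = 0.0118). CG15534 differed by 0.88 (SE 0.15) and did not pass there (limma adjusted p = 0.186). CG5966, a lipase gene, scored 10.03, 10.66 and 11.01 in SF against 9.42, 9.86 and 10.40 in RF, with a difference of 0.75 (SE 0.15, limma adjusted p = 0.531). The gut lipase gene mag differed by 0.54 (SE 0.16, limma adjusted p = 0.899) and was higher in SF in 6 of 6 pairs. It belongs to a list of 12 tested genes of lipases, lipid droplet proteins and lipid carriers. Of these 8 were higher and 4 lower in SF, with a median of 0.04, and of all probe sets 55.9% were higher. The list held 1 gene at an unadjusted p under 0.05 on each side, mag and the droplet coat gene Lsd-1, which differed by -0.44 (SE 0.18, limma adjusted p = 0.919). Of all probe sets, 1.03% were higher and 2.55% lower at that level.

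Genes listed for fatty acid and triglyceride synthesis scored mostly lower in SF than in RF. Of 16 tested genes of fatty acid and triglyceride synthesis 13 were lower in SF, 4 of them at an unadjusted p under 0.05 (2.55% of all probe sets), and the median was -0.16. The largest difference in the list was on the other side, in Dgat2, which encodes an enzyme of the last step of triglyceride synthesis, with 7.14, 7.35 and 8.47 in SF against 6.28, 6.61 and 7.20 in RF. It was higher in SF in 6 of 6 pairs, by 0.81 (SE 0.21, limma adjusted p = 0.786). The list also held bgm, a gene of an acyl-CoA synthetase, a class of enzyme not limited to synthesis. It differed by -0.35 (SE 0.07), was lower in 6 of 6 pairs and passed with the spread of 12 pairs (limma adjusted p = 0.0246). It was among the 4 lower genes at an unadjusted p under 0.05. ACC and FASN1, chosen after their values were seen, encode the enzymes that make fatty acids from acetyl-CoA. ACC averaged 11.69 in SF, against 12.03 in RF and 12.02 in CF, and FASN1 averaged 13.60 in SF, against 13.84 in RF and 13.89 in CF. Both were thus below both steady cohorts in these means. Against RF the limma adjusted p was 0.689 for ACC and 0.919 for FASN1, and against CF it was 0.586 for each.

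The 12 probe sets named as lower in SF had the lowest unadjusted p among those lower in 6 of 6 pairs. They include genes of gut enzymes and of amino acid transport. Jon25Bii and Jon25Bi, neighbours that encode serine proteases of the Jonah family made in the midgut, had the lowest differences of any named enzyme. Jon25Bii scored 8.55, 9.14 and 9.59 in SF, against 9.64, 10.42 and 11.18 in RF. All 6 SF values lay below all 6 RF values, and SF minus RF was -1.24 (SE 0.18), which passed with the spread of 12 pairs (limma adjusted p = 0.0466). Jon25Bi scored 8.998, 9.90 and 10.20 in SF, against 10.45, 10.89 and 11.65 in RF, with no overlap, and its difference of -1.22 (SE 0.20) did not pass there (limma adjusted p = 0.0559). Neighbouring copies of a family can share probe targets, and this was not tested. A list of 28 digestive protease genes held 27 of serine proteases and Bace, of an aspartic protease. Of the 28, 22 were lower in SF, 8 of them at an unadjusted p under 0.05 against 2.55% of all probe sets, with a list median of -0.13, and of the 27 serine protease genes 21 were lower. The remaining 6 were higher, up to 0.51, and none of them reached an unadjusted p under 0.05.

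Carboxypeptidases and proteins that bind chitin followed. CG12374, the gene of a metallocarboxypeptidase, scored 13.16, 13.45 and 13.97 in SF, against 14.18, 14.29 and 14.43 in RF. The cohorts did not overlap, and SF minus RF was -0.76 (SE 0.13), passing with the spread of 12 pairs (limma adjusted p = 0.0246). CG14820, of the same enzyme class, scored 7.75, 7.97 and 8.37 in SF, against 8.28, 8.61 and 8.70 in RF. It differed by -0.56 (SE 0.08) and passed both with the spread of 12 pairs (limma adjusted p = 0.0246) and in the single fit (adjusted p = 0.0254). CG42397, a gene of a chitin-binding protein, scored 10.58, 11.43 and 11.80 in SF, against 12.15, 12.45 and 12.74 in RF, with no overlap. SF minus RF was -1.10 (SE 0.20), while CF lay between 11.08 and 11.63. The chitin deacetylase gene serp differed by -0.56 (SE 0.11), and it too passed with the spread of 12 pairs (limma adjusted p = 0.0466).

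**Figure D2:**
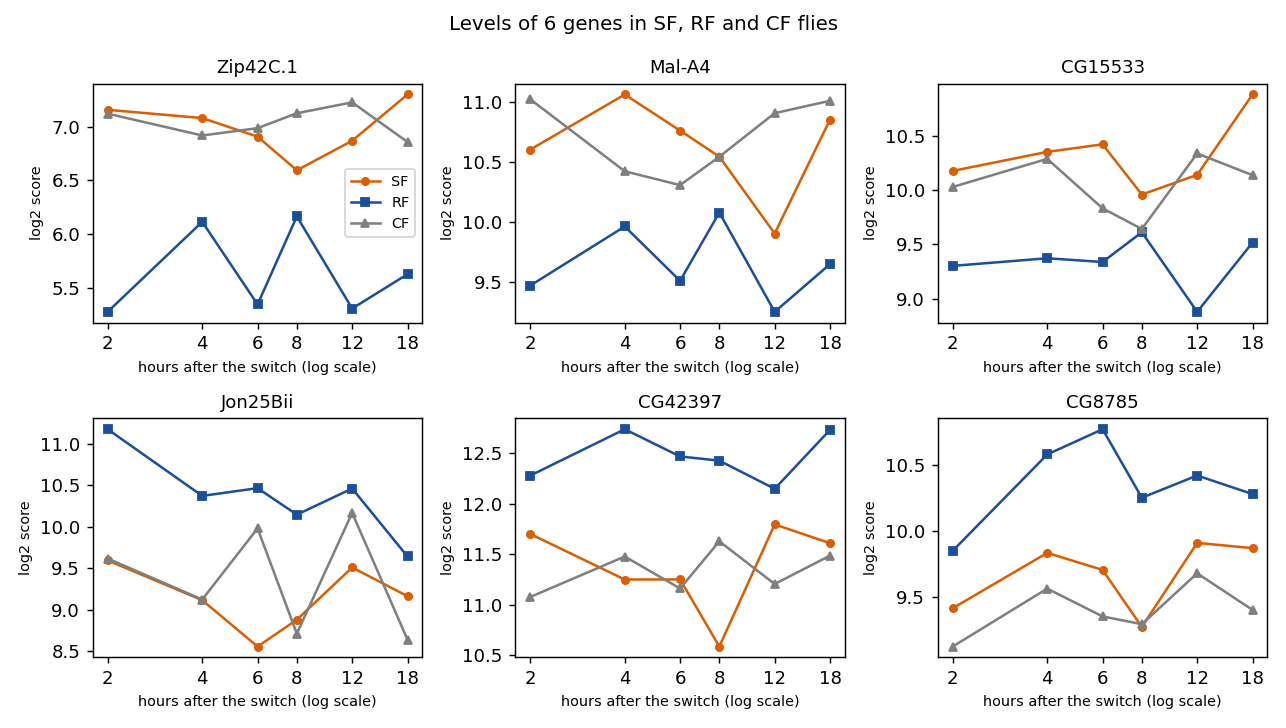
Log2 scores (y axis) of 6 genes at 2 to 18 hours after the switch (x axis, log scale) in SF, RF and CF, with 1 array per point. In 4 of the 6 genes, Zip42C.1, CG15533, Jon25Bii and CG42397, all SF values lie on the same side of all RF values.

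Beside Zip42C.1 on the higher side, the 12 lower probe sets held genes of 2 transporters. CG8785, a gene of the proton-coupled amino acid transporter family, scored 9.28, 9.77 and 9.91 in SF, against 9.85, 10.35 and 10.77 in RF, and CF lay lower still at 9.13 to 9.68. SF minus RF was -0.69 (SE 0.11), which passed with the spread of 12 pairs (limma adjusted p = 0.0246) and in the single fit (adjusted p = 0.0384). CG1698, of the sodium-dependent transporter family, scored 8.22, 8.76 and 9.07 in SF, against 9.10, 9.30 and 10.04 in RF. These values did not overlap, by a narrow margin, and the difference of -0.68 (SE 0.11) passed by limma with the spread of 12 pairs (adjusted p = 0.0331). SF minus CF was 0.41 for CG1698 and 0.27 for CG8785, so that both lay between CF and RF on average.

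The remaining lower genes have other or unknown roles. CG13947 had the lowest difference of the 24, with 10.003, 10.57 and 11.65 in SF against 11.79, 12.25 and 12.98 in RF. The cohorts did not overlap, and the difference of -1.57 (SE 0.23) passed by limma with the spread of 12 pairs (adjusted p = 0.0246). Ag5r2, a member of the antigen 5 genes of secreted proteins, scored 10.77, 11.06 and 11.42 in SF, against 11.89, 12.00 and 12.25 in RF, with no overlap. Its difference was -0.93 (SE 0.13), and it passed with the spread of 12 pairs (limma adjusted p = 0.0246). The noncoding RNA lncRNA:alphagamma-element:CR32865, read by a probe set whose suffix marks probes shared with other transcripts, had the lowest p of all the lower ones, with 7.40, 7.53 and 8.16 in SF against 8.27, 8.55 and 8.90 in RF. Its difference was -0.91 (SE 0.10, limma adjusted p = 0.164), and -0.71 to -1.24 in the single pairs. CG6403 differed by -0.85 (SE 0.11) and CG16772 by -0.78 (SE 0.13). The probe set of CG13947 carries the same suffix.

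On average SF lay nearer to CF than to RF in all 24 named probe sets. They were chosen for their SF minus RF difference and the 3 comparisons share arrays, so that this is a description. SF minus CF was between -0.33 and 0.28 for all 12 genes named as higher. Among the lower ones it ran from -0.62 for CG16772 to 0.42 for Ag5r2. CG16772 was lower in SF than in either steady cohort on average, with 10.21, 10.78 and 10.88 in SF, 11.12, 11.29 and 12.01 in RF and 10.64, 11.36 and 11.61 in CF. Pgm1, the gene of phosphoglucomutase, showed the same order. It scored 11.54, 11.69 and 11.85 in SF, against 11.87, 11.98 and 12.23 in RF and 11.75, 11.94 and 12.16 in CF. Its SF and RF values did not overlap, and the difference was -0.34 (SE 0.06), which passed by limma with the spread of 12 pairs (adjusted p = 0.0266).

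At the time of the switch, 1 array each of CF and RF gave the starting point of both cohorts. CF minus RF was 1.96 for Zip42C.1, 2.73 for Cpr49Ac, 2.61 for CG15533, 2.51 for CG15534 and 2.12 for Mal-A3 at 0 hours. For lower genes it was -2.59 for CG13947, -1.71 for CG1698, -1.26 for Jon25Bii and -0.90 for CG42397. Of the 24, Cyp4s3, CG6403 and CG14820 had a CF minus RF difference at 0 hours opposite in sign to their SF minus RF of 2 to 18 hours, with -0.28, 0.08 and 0.20 in that order. Both arrays stand apart from the others in their eggshell mean, at 7.94 in CF and 5.63 in RF, and each is a single array, so that these values are a description.

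A group of abundant transcripts on chromosome arm 2L differed by small amounts. CG7968, CG7953 and CG8997 lie together in the RefSeq gene table of the Release 6 plus ISO1 MT assembly. CG7953 and CG7968 are direct neighbours, with 1 gene between CG7953 and CG8997. CG7968 scored 11.83, 11.88 and 12.35 in SF, against 11.31, 11.53 and 11.67 in RF. CG7953 scored 14.18, 14.31 and 14.37 in SF, against 13.56, 13.89 and 14.04 in RF, and CG8997 scored 14.40, 14.47 and 14.57 in SF, against 13.95, 14.16 and 14.22 in RF. In none of them did the cohorts overlap. The differences were 0.46 (SE 0.09) for CG7968, 0.43 (SE 0.09) for CG7953 and 0.34 (SE 0.07) for CG8997. Only CG7953 (adjusted p = 0.03) and CG8997 (adjusted p = 0.0466) of these passed by limma with the spread of 12 pairs.

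Immune genes scored mostly higher in SF, cytochrome P450 and UDP-glycosyltransferase genes of detoxification mostly lower, and glutathione S-transferase genes were split. Of 12 tested antimicrobial peptide and immune effector genes 10 were higher in SF, with a median of 0.44 and 4 at an unadjusted p under 0.05 (1.03% of all probe sets). The immune gene edin scored 7.64, 8.77 and 10.39 in SF, against 6.72, 7.93 and 8.91 in RF, and SF was higher in 4 of 6 pairs with a difference of 0.99 (SE 0.41, limma adjusted p = 0.919). DptB, which encodes the antimicrobial peptide Diptericin B, scored 12.27, 13.12 and 13.83 in SF, against 12.09, 12.57 and 12.94 in RF, higher in 5 of 6. The ranges overlapped for both. Of 60 cytochrome P450 genes, which encode enzymes that oxidize toxins and hormones, 42 were lower in SF, 7 of them at an unadjusted p under 0.05 (2.55% of all probe sets), and 3 were higher at that level (1.03% of all). The cyclophilin genes Cyp1 and Cyp40, which share the start of their names with this list, were left out of these counts. Cyp4e1 scored 7.28, 7.52 and 7.85 in SF, against 7.87, 8.30 and 8.37 in RF, with no overlap and a difference of -0.63 (SE 0.12, limma adjusted p = 0.502). Cyp4s3 went the other way by 0.43 (SE 0.07), with no overlap, and passed with the spread of 12 pairs (limma adjusted p = 0.0467). Of 23 UDP-glycosyltransferase genes 15 were lower, 4 at an unadjusted p under 0.05 (2.55% of all probe sets), with a median of -0.11. Of 30 glutathione S-transferase genes, also of detoxification, 14 were higher and 16 lower in SF, with a median of -0.007. In that list 0 genes had an unadjusted p under 0.05.

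**Figure D3:**
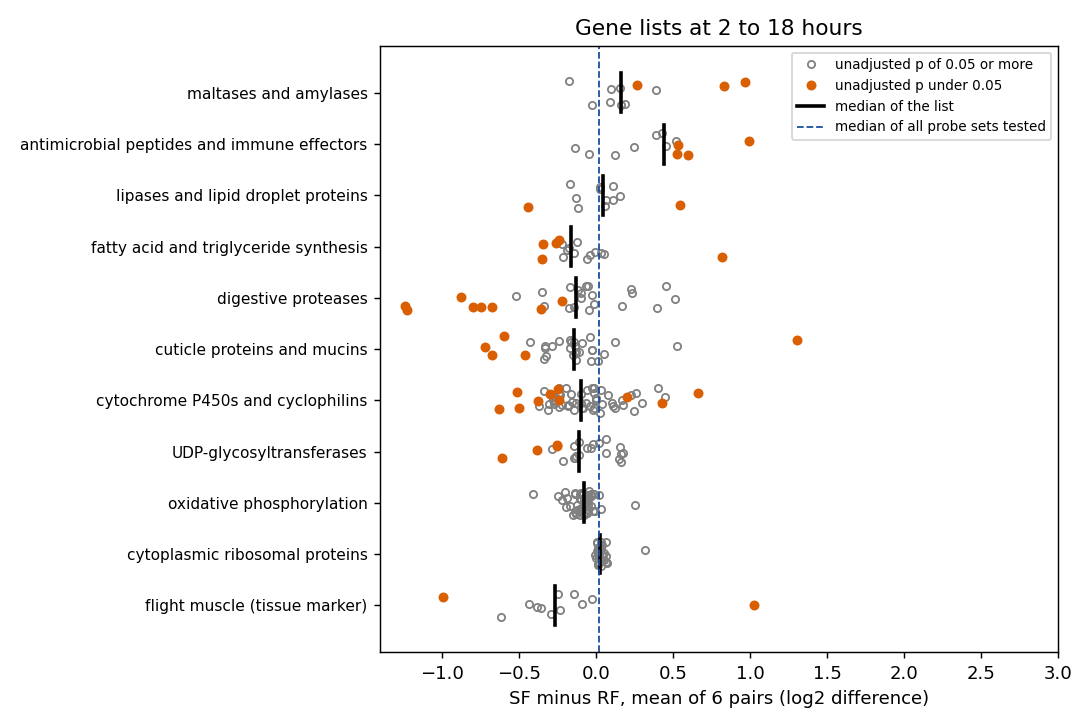
SF minus RF on the log2 scale (x axis, mean of 6 pairs) for the members of 11 gene lists (y axis), with filled points at an unadjusted limma p under 0.05, black bars for the median of a list and a dashed line for the median of all probe sets. Of the 11 lists drawn, the medians farthest from the line are those of antimicrobial peptides and immune effectors at 0.44 and flight muscle at -0.27.

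Lists of the basic machinery of the cell differed by little. Of 57 oxidative phosphorylation subunit genes 54 were lower in SF, with a median of -0.08 and 0 at an unadjusted p under 0.05. Of 30 cytoplasmic ribosomal protein genes 29 were higher, with a median of 0.02, equal to that of all probe sets to 2 decimals, and 15 of the 30 were higher once array medians had been set equal. Mitochondrial ribosomal proteins (61 of 69 higher, median 0.06), proteasome subunits (25 of 26, median 0.06) and aminoacyl-tRNA synthetases (15 of 16, median 0.07) held no member at an unadjusted p under 0.05. Of all probe sets 55.9% were higher. With array medians set equal, the counts were 48 of 69, 23 of 26 and 14 of 16 in that order. The 2 members of each list with the largest difference had r of 0.763 to 0.991 with the eggshell difference over the 6 pairs. An absolute r above 0.7 was found in 67.2% of all probe sets. Autophagy genes (9 of 19 higher), heat shock protein genes (7 of 11) and circadian clock genes (4 of 9) held no member at an unadjusted p under 0.05 either. Of 8 genes listed for glycogen and trehalose metabolism, among them Pgi of glycolysis, 8 were lower in SF with a median of -0.09, and of 20 vacuolar ATPase subunit genes 18 were lower with a median of -0.06, each list with 1 gene at an unadjusted p under 0.05 (2.55% of all probe sets were lower at that level). Odorant binding protein genes, whose products carry odours in sense organs, were lower in SF in 18 of 26, with Obp57a at -0.60 (SE 0.16) and Obp99b at 0.95 (SE 0.44), neither of which passed (limma adjusted p = 0.786 and 0.919 in that order). A list of 31 genes of 25 cuticle or chitin-binding proteins and 6 mucins had 26 lower, with a median of -0.14, and of the 25 without the mucins 21 were lower. In it Cpr72Ec stood at -0.72 (SE 0.26, limma adjusted p = 0.919) and Cpr49Ac at 1.30. Beside these small shifts, germline markers were higher in SF in 9 of 10 genes with a median of 0.32, and photoreceptor markers were lower in 7 of 8 with a median of -0.17. The part of these tissues in the shifts was not tested.

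Flight muscle markers were lower in SF in 11 of 12 genes, and the exception was the flight muscle actin gene Act88F. It scored 10.06, 11.06 and 12.04 in SF, against 9.05, 10.13 and 10.51 in RF, higher in 6 of 6 pairs by 1.03 (SE 0.33, limma adjusted p = 0.919). TpnC4, a troponin C gene of the same muscle, scored 7.11, 8.30 and 8.87 in SF, against 8.10, 9.27 and 9.65 in RF, and differed by -0.99 (SE 0.39, limma adjusted p = 0.919). CF stood near SF in both, at 10.43 to 11.58 for Act88F and 8.03 to 8.64 for TpnC4.

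Some genes swung widely between hours, among them members of nutrient storage, phosphatase and insulin signalling families. Lsp2, whose larval serum protein is a store of amino acids, scored 9.55, 10.87, 8.66, 7.12, 10.56 and 7.92 in SF at 2, 4, 6, 8, 12 and 18 hours, against 7.76, 8.32, 6.49, 8.05, 6.66 and 8.47 in RF. SF was above RF in 4 of 6 pairs and below it at 8 and 18 hours, and the mean difference of 1.49 (SE 0.65) did not pass (limma adjusted p = 0.919). CF lay at 10.11 to 11.20, above every RF value. The alkaline phosphatase gene phu scored 6.94, 8.57, 9.52, 8.56, 9.05 and 11.12 in SF, against 9.96, 8.05, 9.87, 10.17, 9.24 and 11.003 in RF. SF minus RF was -3.02 at 2 hours, when CF was at 6.95, and 0.12 at 18 hours, when CF was at 5.75. Insulin-like peptide gene Ilp5 scored 7.56, 7.92, 6.92, 6.13, 7.75 and 7.06 in SF, against 6.29, 6.37, 6.66, 6.91, 5.98 and 7.13 in RF, and like Lsp2 it was below RF at 8 and 18 hours. Of 16 tested insulin, FOXO and TOR genes 11 were higher in SF, against 55.9% of all probe sets, and 2 of them had an unadjusted p under 0.05, against 1.03%. Of 9 alkaline phosphatase genes 7 were lower with a median of -0.32. The phosphatase gene Alp8 scored 4.93, 5.54 and 6.63 at its lowest, median and highest in SF, against 5.07, 7.03 and 7.92 in RF, and lay below RF in 5 of 6 pairs without passing (limma adjusted p = 0.919). The eggshell mean was higher in SF than in RF at 8 and 18 hours, and also at 6 hours. Over the 6 pairs its difference had an r of -0.99 and a rho of -1 with that of Ilp5, and an r of -0.908 and a rho of -0.943 with that of Lsp2. Without the pairs at 8 and 12 hours, farthest from the median eggshell difference, r was -0.979 for Ilp5 and -0.759 for Lsp2. For phu r was -0.214 and rho -0.314, and r was 0.0963 without those pairs. For Alp8 r was -0.338 and rho -0.257, and r was -0.525 without them. These genes were chosen after their values were seen, so that the correlations are a description of 6 points and no p value is given. An absolute r above 0.7 was found in 67.2% of all probe sets.

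**Figure D4:**
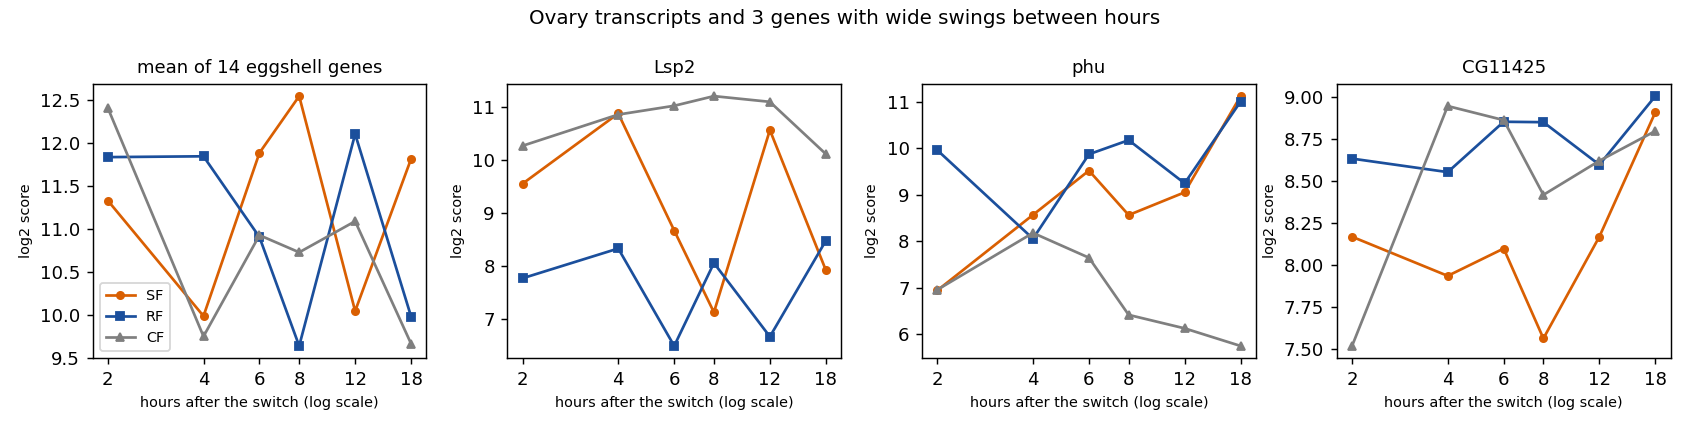
Log2 scores (y axes) at 2 to 18 hours after the switch (x axes, log scale) of the mean of 14 eggshell genes, Lsp2, phu and CG11425 in SF, RF and CF, with 1 array per point. The eggshell lines of SF and RF cross several times, and the phu line of SF starts at 6.94 beside CF and ends at 11.12 beside RF.

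The difference between SF and RF was then tested for a trend with time. No probe set had a slope per doubling of the hour that passed limma's test (0 of 9420, 0%), and 50 had an unadjusted p under 0.05. The slope per doubling was 0.69 (SE 0.39) for phu, -0.46 (SE 0.66) for Lsp2 and 0.32 (SE 0.14) for Jon25Bii. A slope that misses the threshold does not show a constant difference.

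The 6 later pairs, at 24 to 72 hours, share no array with the first 6 and gave a second reading of the 24 named probe sets. They come from the same SF and RF cohorts, so that vials and diet history cannot be told apart in them either. Limma called 13 of the 24 between SF and RF in those pairs, against 183 of all 9420 (1.94%). The 183 became 117, 24, 455, 25 and 40 without 24, 32, 40, 48 and 56 hours, and 3 with the eggshell mean as a covariate. In the later pairs the median SF minus RF was 0.44 for eggshell genes and 0.26 for germline markers. It was -0.39 for flight muscle and -0.11 for photoreceptor markers, and the part of these tissues in the later calls was not tested. Of the 24, 22 had an unadjusted p under 0.05, against 22.8% of all. The direction was the same as at 2 to 18 hours in 23 of 24, and in the same 23 it held in at least 5 of the 6 later pairs. The 13 were 10 of the 12 higher ones and 3 of the 12 lower ones, CG14820, CG8785 and lncRNA:alphagamma-element:CR32865. The 13 became 0 with the eggshell covariate, under which 22 of the 24 had an unadjusted p under 0.05, against 7.54% of all probe sets, and 24 of 24 had the same sign as without it. They became 8 without 24 hours, 5 without 32 or 56 hours and 6 without 48 hours. CG15533 differed by 1.21 (SE 0.11, adjusted p = 0.00498 by limma), Mal-A4 by 1.08 (adjusted p = 0.0096) and Zip42C.1 by 0.87 (adjusted p = 0.0128) in the later pairs. Among those not called, CG42397 differed by -0.56 (adjusted p = 0.0596) and Jon25Bii by -0.65 (adjusted p = 0.133). The median ratio of the later to the first difference was 0.69, and the later one was smaller in size for 16 of the 24. Since the 24 were chosen for their low p in the first pairs, their first differences are expected to run high, and this ratio is a description.

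**Figure D5:**
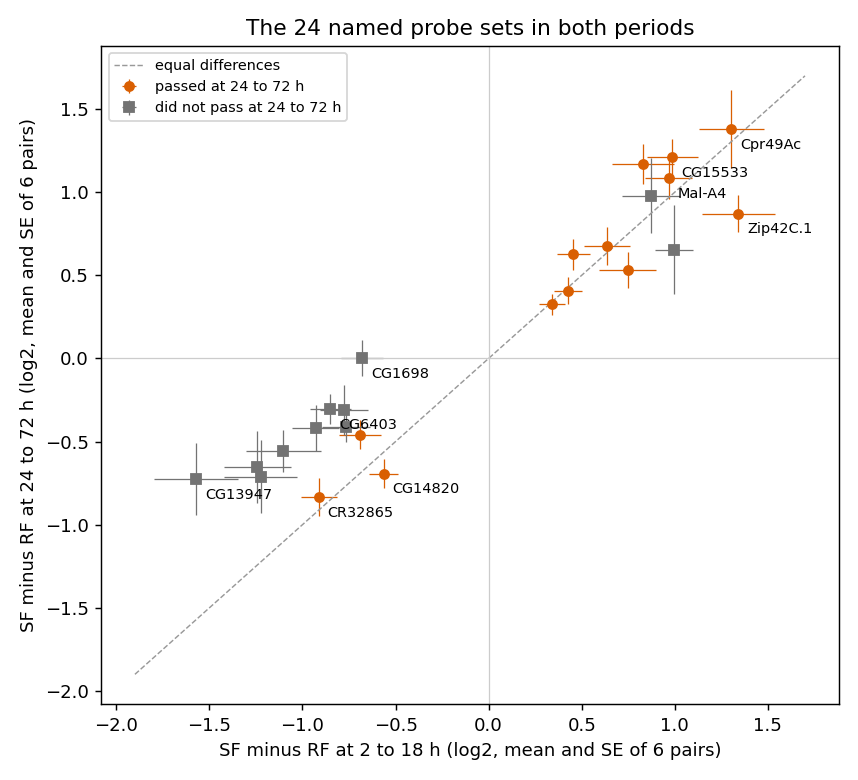
SF minus RF of the 24 named probe sets at 2 to 18 hours (x axis) and at 24 to 72 hours (y axis), as log2 means of 6 pairs with standard errors. Round points passed limma's test at 24 to 72 hours (13) and square points did not (11), and CG1698 lies at 0 on the y axis.

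A direct test of the later against the first period called 0 of 9420 probe sets (0%), with 193 at an unadjusted p under 0.05. CG1698 had the clearest change among the 24, with -0.68 at 2 to 18 hours and 0.003 (SE 0.11) at 24 to 72 hours, a change of 0.68 (SE 0.16). CG6403 differed by -0.85 in the first period and by -0.31 in the later one, a change of 0.55 (SE 0.15). CG11425, a gene of a lipid phosphate phosphatase, scored 7.56, 8.13 and 8.91 in SF at 2 to 18 hours, against 8.55, 8.74 and 9.004 in RF. It was lower in SF in 6 of 6 pairs, with a difference of -0.61 (SE 0.15, limma adjusted p = 0.734). In the later pairs it was higher by 0.71, in 5 of 6, a change of 1.32 (SE 0.34). The adjusted p of each of these changes was close to 1, the smallest of any probe set included.

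Further genes that earlier work on these arrays had named were read in the same pairs. CG31446 scored 8.57, 9.10 and 9.49 in SF, against 9.60, 9.83 and 10.04 in RF, and CF lay at 8.77 to 9.54. The SF and RF values did not overlap, and SF minus RF was -0.76 (SE 0.17, limma adjusted p = 0.663). CG14219 scored 8.82, 9.39 and 9.92 in SF, against 7.85, 8.28 and 9.19 in RF, with a difference of 1.09 (SE 0.25) that ran from 0.03 at 4 hours to 2.08 at 18 hours. CG11594 differed by -0.47 (SE 0.18) and was lower in SF in 6 of 6 pairs, although the differences at 2 and 4 hours were -0.04 and -0.01. Ptth, the gene of prothoracicotropic hormone, differed by -0.19 (SE 0.11) and was lower in 4 of 6 pairs. The neighbours CG10514 and CG11892 differed by -0.22 each (SE 0.20 and 0.19) with overlapping ranges, and their later differences were -0.81 and -0.89. An exact sign-flip test over 6 pairs cannot go below 0.0312, the value that a gene with 6 of 6 pairs in 1 direction receives.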

How the data were processed

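RNA was measured on Affymetrix Drosophila 2.0 arrays. The deposited values are log2 expression scores that the authors made by quantile normalization and RMA; the submitters' notes name RMA without a version. The table held 18952 probe sets, of which 183 array controls were left out, and 9420 of the other 18769 had a mean score of at least 6 over the 36 arrays of 2 to 72 hours. Of those, 8345 matched 1 gene in the platform annotation, 242 several and 833 none.

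SF minus RF was tested with limma 3.58.1 in R 4.3.3 on the 6 pairs of arrays of the same hour, since the study's methods pair arrays by time of collection, with Benjamini-Hochberg adjustment over all probe sets tested. The slope with log2 hour and the later minus the first period were tested in the same way. The fits were tested on simulated data. Named genes are the 12 per direction with the largest called difference or, as here with none called, the lowest unadjusted p, with the same sign in 6 of 6 pairs, plus 2 per gene list by size and 15 genes named in earlier work. Where a gene has several probe sets the one with the highest mean score was used. Members and lists were chosen with earlier results of these data known. The number of arrays limits the precision.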

Additional observations from a re-analysis of the deposited data

Results flagged for a closer look

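Of 80 groups of 6 values examined, the SF and RF scores of 40 probe sets, 2 held a value far from the others, and chance flags about 1 group in 20. CG15534 scored 7.51 in SF at 4 hours, with its other SF values at 8.53 to 8.91. CG8997 scored 13.95 in RF at 12 hours, with its other RF values at 14.14 to 14.22.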

How the results depend on the processing

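The count of 0 calls between SF and RF remained 0 with no filter, a minimum score of 7, each array centred on its median, the eggshell mean as a covariate, an intensity trend in limma, the paired t-test of the study's methods with either adjustment, and without any hour (lowest 0, highest 0). It was 3 without the pairing by hour (the fit with no replicate block), 3 in a single fit of 18 arrays, 24 with the spread of 12 pairs, 5 with array weights and 1 with the 3 comparisons of the first 18 hours adjusted together. The pairing took hour as the block and comes from the time of collection. All 24 named probe sets kept their direction in every setting in which they were tested. For most settings this was fixed beforehand. The rule that named them required the same sign in every pair, so leaving out an hour could not reverse them. Settings of filter, pairing, spread, test or adjustment left the difference itself unchanged. Relative to the main fit, the differences were 0.936 to 1.04 with centred arrays, 0.801 to 1.2 with array weights and 0.962 to 1.02 with the eggshell covariate. Counts for the trend and for the later against the first period were 0 in every setting tried, lowest 0 and highest 0 over the left-out hours. The later fit, chosen after seeing the data, called 183 probe sets, 24 to 455 with an hour left out and 3 with the eggshell covariate, and it called 13 of the 24 named, 5 to 11 with an hour left out and 0 with that covariate, under which 22 of the 24 had an unadjusted p under 0.05 (7.54% of all probe sets). With the spread of 12 pairs, the 24 calls were 0 to 26 with an hour left out and 86 with the eggshell covariate, settings also added after seeing the data. The causes of these changes were not tested.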

Other observations

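Probe sets with the largest differences in size were not those of lowest p. CG43090 averaged 6.03 in SF against 8.65 in RF, a difference of -2.62 (SE 2.78), and CG18628 averaged 6.96 in SF against 8.94 in RF, a difference of -1.98 (SE 2.20). Both were lower in SF in 4 of 6 pairs, and both were chosen after their values were seen. CG32751, chosen likewise, averaged 6.50 in SF, against 5.18 in RF and 6.05 in CF, and SF was higher in 6 of 6 pairs by 1.32 (SE 0.29, limma adjusted p = 0.628).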
